A study of Mus musculus with 10 samples.

Results

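Cells make cholesterol and fatty acids from acetyl-CoA. The 38 genes described here run these routes in splenic CD8+ T cells, and comprise the regulators that sense sterols, the enzymes, and the proteins that move, store or export cholesterol. They were chosen by gene name, and all 38 were found among the 57010 genes of the count table. SREBP transcription factors sit in the endoplasmic reticulum and are released when sterols run low, after which they switch on genes of cholesterol and fatty acid synthesis. LXR receptors respond to oxidised sterols and switch on genes that export cholesterol. T cells that leave the resting state grow before they divide, and membrane lipid synthesis is known to be part of that growth.

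RNA was sequenced from CD8+ T cells of the spleen of 5 mice, each giving a rested and an activated library, 10 libraries in all. In 3 mice, called cKO, both copies of Dusp2 were floxed and E8I-cre was present (genotype Dusp2fl/fl-E8I-cre+/-), a cre that acts in CD8+ T cells. The 2 control mice carried floxed Dusp2 without the cre, so loss of Dusp2 and presence of cre cannot be told apart. Activated cells were held with anti-CD3/CD28 beads for 24 h, and rested cells were kept in the same medium without beads. DUSP2 is a phosphatase that acts on MAP kinases. Control mouse 1 and cKO mice 1 and 2 were male and had names beginning with 116, whereas control mouse 2 and cKO mouse 3 were female with names beginning with 119. Sex and this number therefore coincide. For cKO mouse 3 the sample titles disagree with the remaining labels of its libraries, and the latter were followed. The sources used here give no ages for the mice.

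The libraries held between 51203786 and 65135435 counts, and 3 counts, taken as the detection floor, corresponded to 0.0453 to 0.0602 CPM (counts scaled to library sizes that were themselves scaled between samples). A floor of this kind reflects counting only and not the variation between mice. Dusp2 was at 87.8 and 97.4 CPM in rested control cells and at 24.8 to 28.1 CPM in rested cKO cells. After activation it was at 291.8 and 298.7 CPM in control cells and at 46.4 to 56.3 CPM in cKO cells, so the libraries fell on the sides their labels give. The 7 CD8+ T cell markers summed to between 2870 and 3570 CPM per library. The 10 myeloid markers summed to between 9.24 and 17.2 CPM, nearly all from Cd68, with C1qb, C1qc and Fcgr1 at 0 in every library. Natural killer cell markers summed to between 13.7 and 28.2 CPM in rested control and between 27.8 and 52.1 CPM in rested cKO cells. In activated cells they summed to 28.3 to 42.4 CPM in control and 52.7 to 82.8 CPM in cKO. The difference of these sums between genotypes was not tested. They came mostly from Eomes, which CD8+ T cells also express, and Ncr1 was at no more than 0.069 CPM. The 3 CD4+ T cell markers summed to between 2.77 and 9.44 CPM in rested and between 12.6 and 33.3 CPM in activated libraries, mostly from Zbtb7b, and Cd4 itself was at no more than 1.22 CPM. B cell markers summed to at most 6.32 CPM and erythroid markers to at most 0.122 CPM. Il2ra, the high-affinity interleukin-2 receptor chain, was at 1.73 ± 0.67 CPM in rested and 406.3 ± 44.7 CPM in activated cells (SD, n = 5).

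Activation moved these genes in both directions. Some enzymes of sterol and fatty acid synthesis rose, and others fell or did not pass the test. The cholesterol exporters Abca1 and Abcg1 fell. Of the 38, 37 were tested. A gene counts as risen or fallen where the Benjamini-Hochberg adjusted p of edgeR's quasi-likelihood test over all 18966 genes tested was below 0.05. In the mean activation effect of both genotypes 16 rose and 10 fell, 26 of 37 or 70.3%. Over all genes tested 69.1% were called, 34.8% as higher and 34.3% as lower. A share of 70.3% is thus near that of all genes. Changes of at least 2-fold were called upward in 9 of the 37 and downward in 4, where 14.7% of all genes passed upward and 10.2% downward. The median log2 fold change was 0.10 among the 37 and -0.004 over all genes. In bulk RNA, fewer cells of a type and less RNA per cell cannot be told apart.

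**Figure D1:**
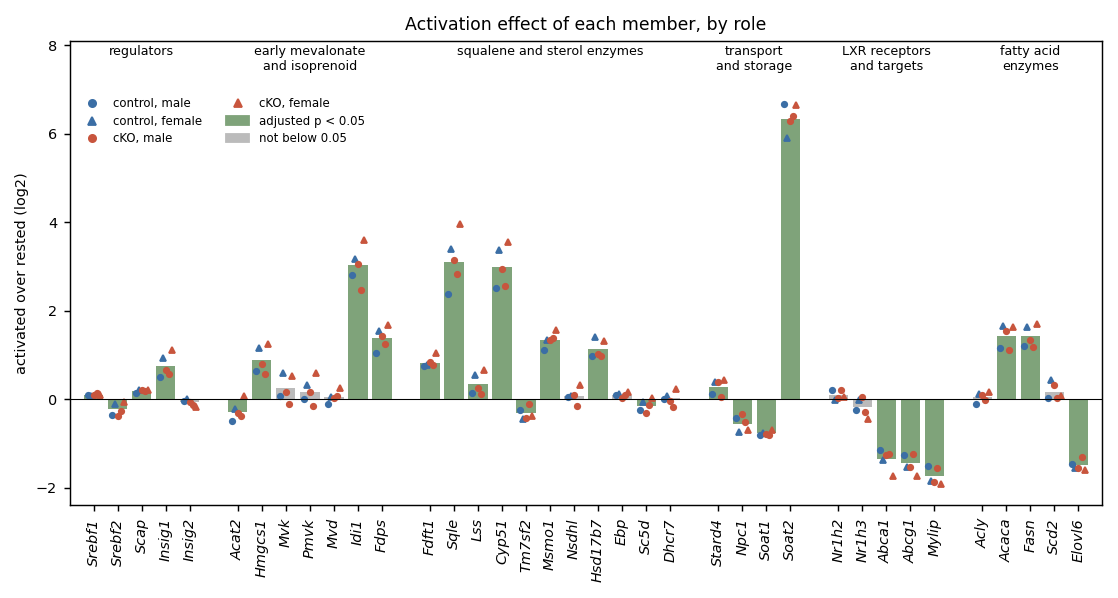
Activation effect of the 37 tested genes, ordered by role. Bars give the fitted log2 fold change of activated over rested cells (mean of both genotypes), points the log2 ratio in each of the 5 mice (blue control, red cKO; circles male, triangles female). Soat2 stands far above the others at 6.34, Sqle, Idi1 and Cyp51 follow at 3.09, 3.02 and 2.98, and Abca1, Abcg1, Mylip and Elovl6 lie below -1.

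By role, set against 34.8% of all genes tested called higher and 34.3% lower, 3 of 5 regulators rose and 1 fell. Among 7 enzymes of the early mevalonate and isoprenoid steps 3 rose and 1 fell, and among 11 enzymes of the squalene and sterol steps 6 rose and 2 fell. Of 4 genes of sterol transport and storage 2 rose and 2 fell. None of the 5 LXR receptors and targets rose and 3 fell. Of 5 tested fatty acid enzymes 2 rose and 1 fell. Of the 26 called genes, 24 moved the same way in each of the 5 mice. The exceptions were Acat2 and Sc5d, each lower in 4 of 5 mice. All 26 had the same sign when the male 116 mice and the female 119 mice were fitted separately. The 26 were called from these same mice, so a shared sign follows largely from the call and is not separate evidence. The same counts were not made over all called genes.

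Promoter sequence was available for 29 of the 38 genes in the RefSeq table of build GRCm38.p6, which covers 250 bases before each start and 50 after it. No entry was found for Fdps, Fdft1, Sqle, Stard4, Abcg1, Npc1, Soat2, Scd1 and Scd2. The motif counts therefore leave out Soat2 and Sqle, the genes that rose the furthest. The deposited table uses mm39, so the positions given here are those of RefSeq. Searched on both strands, the sterol regulatory element TCACNCCAC was found in the window of 1 of the 29 genes, Hmgcs1, in 1.44% of 27025 genes with a promoter in the table and in 1.39% of the 10837 of them tested here. CCAAT, the box bound by NF-Y (ATTGG on the other strand), was found in 22 of the 29 (75.9%), in 41.1% of all genes and in 42.9% of the genes tested here. It was present in 9 of 11 genes that rose, 5 of 8 that fell and 8 of 10 that did not pass the test. The E-box CACGTG was found in 6 of the 29 (20.7%), against 8.09% of all genes and 11.4% of the genes tested here. A match is a description of the letters and not a site of binding. For the sterol regulatory element only the letters TCACNCCAC were searched. A gene without a match was thus not shown to lack the element. The stretches below are from the promoters of 7 genes that rose, chosen for having CCAAT or ATTGG before the start. They were taken from genes that rose at least 2-fold, with Hmgcs1 and Insig1 added. Acaca also rose at least 2-fold, but its promoter window held no such box, so it is not shown. In the stretches the capitals mark CCAAT or ATTGG and, in Hmgcs1 only, the sterol regulatory element as well. Each reads 5′ to 3′ on the gene's own strand.
Hmgcs1: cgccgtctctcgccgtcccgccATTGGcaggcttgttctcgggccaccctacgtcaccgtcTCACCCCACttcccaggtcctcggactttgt
Idi1: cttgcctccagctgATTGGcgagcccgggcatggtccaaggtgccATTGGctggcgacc
Cyp51: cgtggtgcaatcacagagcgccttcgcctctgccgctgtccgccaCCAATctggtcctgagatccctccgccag
Msmo1: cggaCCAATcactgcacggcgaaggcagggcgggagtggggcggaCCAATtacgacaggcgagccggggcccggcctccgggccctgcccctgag
Hsd17b7: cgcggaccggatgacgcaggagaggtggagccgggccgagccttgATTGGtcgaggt
Insig1: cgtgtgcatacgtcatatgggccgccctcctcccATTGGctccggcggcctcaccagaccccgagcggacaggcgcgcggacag
Fasn: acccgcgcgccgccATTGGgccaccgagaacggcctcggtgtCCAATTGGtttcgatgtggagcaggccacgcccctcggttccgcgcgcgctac
The Hmgcs1 stretch lies at chr13:119690153-119690244 on the plus strand, with its sterol regulatory element beginning 137 bases before the start. The Idi1 stretch is at chr13:8885547-8885605 (plus), that of Cyp51 at chr5:4104698-4104771 (minus) and that of Msmo1 at chr8:64733584-64733678 (minus). Those of Hsd17b7, Insig1 and Fasn lie at chr1:169969206-169969262 (minus), chr5:28071162-28071245 (plus) and chr11:120824557-120824651 (minus). In Fasn a CCAAT and an ATTGG overlap as CCAATTGG.

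All 5 regulators moved by less than 2-fold. Srebf2, the SREBP of cholesterol synthesis (mm39 chromosome 15, 82031382 to 82089580), was at 420.2 and 407.0 CPM in the rested control mice 1 and 2 and at 400.5, 403.3 and 377.2 CPM in the rested cKO mice 1 to 3. After activation it was at 329.9 and 376.3 CPM in control and 307.3, 337.8 and 362.0 CPM in cKO cells, in the same order of mice, which holds for all values given in this way. The 2 states did not overlap, and the log2 fold change was -0.23 (SE 0.05, edgeR adjusted p = 0.00135). It was not called in the female mice alone (-0.08, edgeR adjusted p = 0.33) or without control mouse 1. Srebf1, which encodes the SREBP1 forms linked to fatty acid synthesis, was at 129.3 ± 4.0 CPM at rest and 138.6 ± 4.9 CPM after activation (SD, n = 5). It was called at a log2 fold change of 0.10 (edgeR adjusted p = 0.0334), but in only 8 of 16 alternative analyses, and the values of the 2 states overlapped. Srebf1 shares 109 bases with Rai1 on the opposite strand.

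Scap, the escort that carries SREBP to the Golgi, rose by 0.19 on the log2 scale (SE 0.04, edgeR adjusted p = 0.000546), from 118.6 ± 4.0 to 135.3 ± 5.2 CPM. Insig1 and Insig2 hold Scap back in the endoplasmic reticulum when sterols are plentiful, and Insig1 is itself an SREBP target. Insig1 was at 30.0 and 28.8 CPM in rested control cells and at 27.4, 28.3 and 26.4 CPM in rested cKO cells. Activated control cells had 42.7 and 54.6 CPM, and activated cKO cells 43.3, 41.8 and 56.8 CPM. Every activated library exceeded every rested one, and Insig1 rose 1.68-fold (log2 0.75, SE 0.08, edgeR adjusted p = 3.4e-06). The highest 2 activated values were those of the female mice. Insig2 did not pass the test, at 20.0 ± 0.1 CPM at rest and 19.0 ± 1.1 CPM after activation (edgeR adjusted p = 0.294).

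In the early mevalonate steps, Hmgcs1, Idi1 and Fdps rose, Acat2 fell, and the kinases and the decarboxylase between them did not pass the test. Hmgcs1 encodes the cytosolic synthase that makes HMG-CoA. It was at 47.7 and 43.8 CPM in rested control cells and 45.7, 47.1 and 43.8 CPM in rested cKO cells. After activation it was at 74.0 and 97.2 CPM in control cells and at 79.8, 69.7 and 104.6 CPM in cKO cells. The states did not overlap, and the rise was 1.85-fold (log2 0.88, SE 0.10, edgeR adjusted p = 4.74e-05). Acat2, the thiolase that joins acetyl-CoA units before this step, was called as lower, at 13.3 ± 0.9 CPM against 11.1 ± 1.0 CPM (log2 -0.28, edgeR adjusted p = 0.00612). It was not called in the female mice alone (edgeR adjusted p = 0.625) or without control mouse 1. Acat3, a near-identical neighbour, was at no more than 0.39 CPM in any library, and the sources used here do not say how reads were divided between the pair.

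Mvk and Pmvk, the kinases that phosphorylate mevalonate, and Mvd, the decarboxylase that follows, were not called. Mvk was at 5.54 ± 0.80 CPM at rest and 6.54 ± 0.65 CPM after activation (log2 0.26, edgeR adjusted p = 0.0686), and it passed in 8 of 16 alternatives. Pmvk had a log2 fold change of 0.17 (edgeR adjusted p = 0.165) and Mvd of 0.05 (edgeR adjusted p = 0.631). Idi1, the isomerase that interconverts the small isoprene units, was scarce at rest.
Its rested libraries held 1.51 and 1.85 CPM in control and 1.65, 1.90 and 1.73 CPM in cKO cells. The activated ones held 10.6 and 16.7 CPM in control and 13.8, 10.5 and 20.9 CPM in cKO cells, all far above the rested range. Idi1 rose 8.14-fold (log2 3.02, SE 0.14, edgeR adjusted p = 7.06e-10). Its paralogue Idi2 was at 0 in every rested library and at no more than 0.29 CPM after activation. Fdps, which joins isoprene units into farnesyl diphosphate, rose 2.60-fold from 11.3 ± 0.6 to 30.0 ± 5.8 CPM (log2 1.38, SE 0.08, edgeR adjusted p = 3.01e-09).

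Of the squalene and sterol enzymes, Sqle and Cyp51 rose the furthest. Sqle, the epoxidase that adds oxygen to squalene and is a known control point of the route (mm39 chromosome 15, 59186926 to 59203041), was at 5.37 and 3.87 CPM in rested control cells and at 3.61, 3.98 and 2.99 CPM in rested cKO cells. Activated control cells had 28.1 and 40.9 CPM and activated cKO cells 31.9, 28.4 and 46.6 CPM. The states were widely separate, with a rise of 8.52-fold (log2 3.09, SE 0.19, edgeR adjusted p = 1.92e-06). The rise in single mice ranged from 2.39 to 3.96 on the log2 scale.

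Cyp51, the demethylase that acts on lanosterol (mm39 chromosome 5, 4131145 to 4154746), was at 9.69 and 8.09 CPM in rested control and 8.61, 10.2 and 9.37 CPM in rested cKO cells. It was at 55.6 and 84.2 CPM in activated control and at 66.7, 59.6 and 109.5 CPM in activated cKO cells. No rested library came near an activated one, and Cyp51 rose 7.88-fold (log2 2.98, SE 0.18, edgeR adjusted p = 4.44e-06). Its span shares 166 bases with Akap9 on the opposite strand, and Akap9 moved the other way (log2 -0.50). The sources used here do not say whether counting used the strand.

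Msmo1 and Hsd17b7, which act in the removal of methyl groups from the sterol ring, both rose. Msmo1 went from 15.2 ± 0.8 to 39.0 ± 4.6 CPM (log2 1.33, SE 0.06, edgeR adjusted p = 2.39e-10). Hsd17b7 went from 7.94 ± 0.64 to 17.6 ± 2.2 CPM (log2 1.15, SE 0.09, edgeR adjusted p = 8.73e-08). Nsdhl, their partner in the same step, was not called, at 13.7 ± 0.6 CPM against 14.5 ± 1.4 CPM. Fdft1, squalene synthase, the first enzyme committed to sterols, rose 1.77-fold from 15.5 ± 0.6 to 27.7 ± 2.9 CPM (log2 0.82, edgeR adjusted p = 1.54e-08). It shares 774 bases with Ctsb on the opposite strand, which had a log2 fold change of -0.47. Lss, which closes the sterol rings, rose 1.27-fold (log2 0.35, edgeR adjusted p = 0.00143).

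The reductases and isomerases that finish cholesterol moved little or downward. Tm7sf2, a sterol reductase, fell by 0.32 on the log2 scale (edgeR adjusted p = 0.00103), from 19.0 ± 0.9 to 15.2 ± 1.2 CPM. It shares 532 bases with Vps51 on the same strand (log2 -0.24). Sc5d, a sterol desaturase, was called as lower at a log2 fold change of -0.15 (edgeR adjusted p = 0.0248), in 7 of 16 alternatives, and its 2 states overlapped. Ebp, a sterol isomerase, and Dhcr7, the reductase of a closing step, were not called, with log2 fold changes of 0.10 and 0.02.

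**Figure D2:**
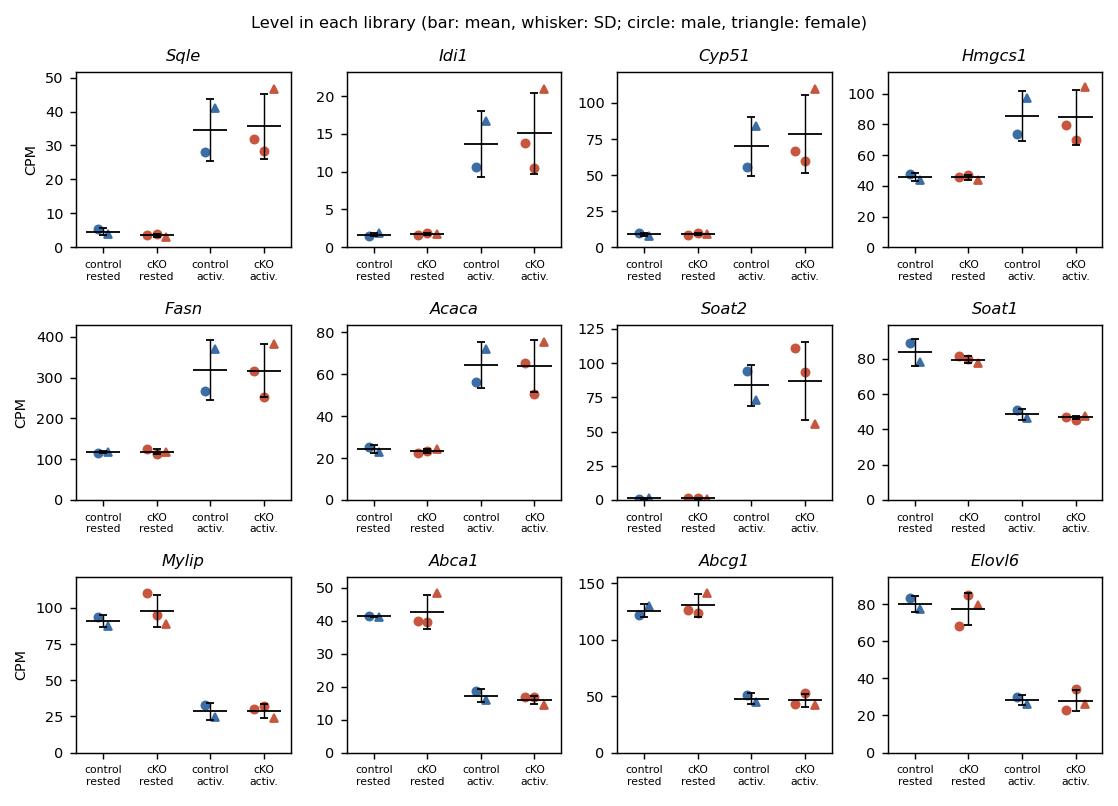
Level of 12 of the genes in each library (CPM, linear axes from 0), by genotype and state. Horizontal bars are group means and whiskers SD (n = 2 control, n = 3 cKO); circles are male and triangles female mice. In the upper row (Sqle, Idi1, Cyp51, Hmgcs1) the triangles are the highest activated libraries, with Cyp51 at 84.2 and 109.5 CPM.

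The largest change of the set was in cholesterol storage. Soat1 and Soat2 encode the enzymes that attach a fatty acid to cholesterol, the form in which cells store it. Soat2 (mm39 chromosome 15, 102058961 to 102071904) was at 0.93 and 1.22 CPM in rested control cells and at 1.43, 1.11 and 0.55 CPM in rested cKO cells, or 30 to 71 counts a library. Activated control cells had 94.5 and 73.2 CPM and activated cKO cells 111.3, 93.3 and 55.4 CPM. Soat2 rose 80.9-fold (log2 6.34, SE 0.19, edgeR adjusted p = 1.33e-08), and by 5.90 to 6.67 on the log2 scale in single mice. Soat1 fell 1.71-fold, from 89.3 and 78.2 CPM in rested control and 81.5, 79.8 and 77.5 CPM in rested cKO cells. In activated cells it was at 50.9 and 46.3 CPM in control and at 47.2, 45.6 and 47.6 CPM in cKO mice (log2 -0.78, SE 0.04, edgeR adjusted p = 3.09e-09). Per length, Soat1 was the higher of the pair at rest and Soat2 after activation, with mean FPKM (counts scaled to gene length and library size) of 8.11 for Soat1 and 0.46 for Soat2 at rest, and of 4.96 and 39.5 after activation.

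Stard4, which carries sterol through the cytosol, rose 1.21-fold from 30.7 ± 1.4 to 37.3 ± 3.0 CPM (log2 0.27, edgeR adjusted p = 0.0012). Npc1, which lets cholesterol out of lysosomes, fell 1.46-fold from 90.2 ± 5.8 to 62.2 ± 8.0 CPM (log2 -0.55, SE 0.06, edgeR adjusted p = 3.75e-06). Its span shares 967 bases with Rmc1 on the opposite strand, which had a log2 fold change of -0.69.

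The LXR receptors did not pass the test, and the targets Mylip, Abca1 and Abcg1 fell. Srebf1, also known as an LXR target, was called higher by 0.10 on the log2 scale, as given above. Nr1h2, which encodes LXR beta, was at 175.7 ± 9.8 CPM at rest and 187.6 ± 5.4 CPM after activation (log2 0.10, edgeR adjusted p = 0.0833). Nr1h3, which encodes LXR alpha, was at only 2.08 ± 0.34 and 1.84 ± 0.36 CPM (edgeR adjusted p = 0.328). Mylip, a ubiquitin ligase that removes lipoprotein receptors, was at 93.8 and 87.7 CPM in rested control and at 110.0, 95.0 and 88.6 CPM in rested cKO cells. It was at 32.7 and 24.4 CPM in activated control and at 30.3, 32.3 and 23.6 CPM in activated cKO cells. With no overlap of states, Mylip fell 3.32-fold (log2 -1.73, SE 0.06, edgeR adjusted p = 4.99e-11).

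Abca1 and Abcg1 are the transporters that pass cholesterol out of the cell. Abca1 was at 41.5 and 41.3 CPM in rested control and 39.9, 39.6 and 48.5 CPM in rested cKO cells. After activation it was at 18.6 and 15.9 CPM in control and 16.8, 16.8 and 14.5 CPM in cKO cells, a fall of 2.53-fold (log2 -1.34, SE 0.08, edgeR adjusted p = 4.42e-09). Abcg1 fell 2.73-fold, from 128.7 ± 7.9 to 46.9 ± 4.7 CPM (log2 -1.45, SE 0.07, edgeR adjusted p = 4.29e-09). Both transporters were lower in 5 of 5 mice.

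Among fatty acid enzymes, the carboxylase and the synthase rose by the same factor. Acaca makes malonyl-CoA from acetyl-CoA. It was at 25.5 and 22.9 CPM in rested control and 22.5, 23.3 and 24.2 CPM in rested cKO cells, and at 56.5 and 72.1 CPM in activated control and 65.4, 50.8 and 75.5 CPM in activated cKO cells. Fasn, which builds the fatty acid chain from malonyl-CoA, was at 115.4 and 118.8 CPM in rested control and at 124.2, 111.6 and 117.7 CPM in rested cKO cells. It was at 266.8 and 370.5 CPM in activated control and 315.5, 253.8 and 383.0 CPM in activated cKO cells. Neither gene's states overlapped. Acaca and Fasn each rose 2.68-fold (log2 1.42 for each, SE 0.09 and 0.10, edgeR adjusted p = 2.02e-07 and 6.76e-07).

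Acly, the enzyme that makes acetyl-CoA from citrate, was at 242.6 ± 7.1 CPM at rest and at 251.2 ± 18 CPM after activation (log2 0.04, edgeR adjusted p = 0.484). Elovl6 lengthens the product of Fasn and fell 2.82-fold, from 83.3 and 77.3 CPM in rested control and 68.2, 84.9 and 79.5 CPM in rested cKO cells. The activated values were 30.2 and 26.3 CPM in control and 23.2, 34.2 and 26.3 CPM in cKO cells (log2 -1.49, SE 0.11, edgeR adjusted p = 2.36e-06). Scd2, a desaturase, was not called, at 24.6 ± 3.5 CPM against 27.5 ± 2.6 CPM. Scd1 was the gene left out by the low-count filter. It had between 0 and 6 counts in a library, at or near the floor, so its level was not resolved at this depth.

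Ordered by mean FPKM, the 3 highest of the 38 genes at rest were Srebf2 (54.6), Nr1h2 (51.2) and Acly (44.9), and the same 3 led after activation at 48.8, 57.2 and 48.7. The spread of Srebf2 and Acly overlapped in activated cells (SD 3.7 and 3.3, n = 5), so these neighbours were not separated. Srebf2 and Nr1h2 were not separated at rest either (SD 1.95 and 2.9, n = 5). Ranks follow the means, and neighbours in rank can overlap. Soat2 moved from rank 37 to rank 4 and Cyp51 from rank 30 to rank 9. Activated Soat2, at 39.5 FPKM (SD 10.1, n = 5), overlapped in spread with Srebf2, Acly and Fasn (SD 5.3 for Fasn). Fasn moved from rank 10 at 10.5 FPKM to rank 5 at 29.7 FPKM. Abcg1 moved down from rank 6 to 18, Elovl6 from 8 to 27 and Mylip from 4 to 12.

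**Figure D3:**
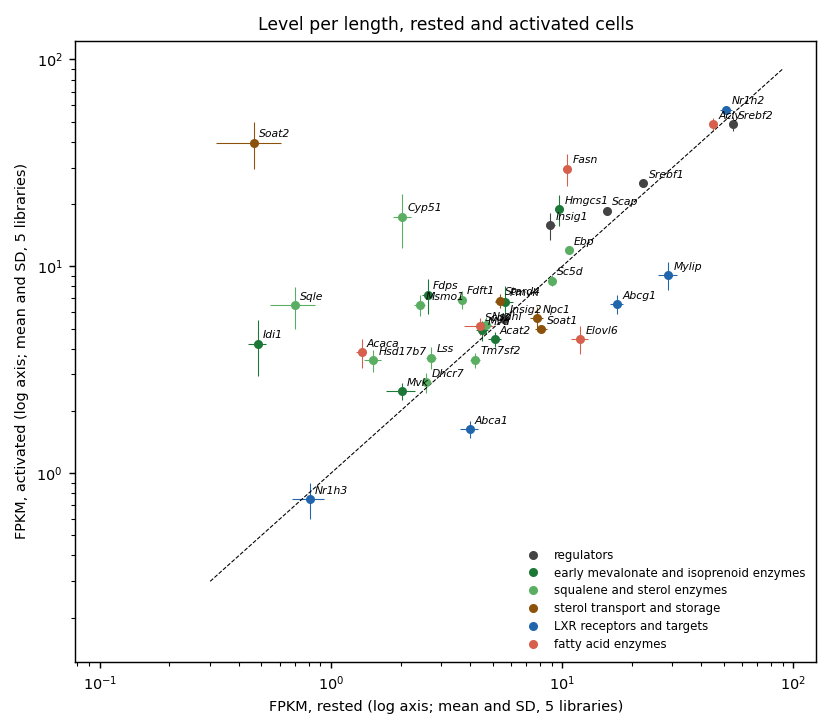
Level per length of 37 genes (all but Scd1) in rested and activated cells, as mean deposited FPKM with SD over 5 libraries on log axes; the dashed line marks equal levels and colours mark roles. Soat2, Sqle, Idi1 and Cyp51 lie far above the line, and Abca1, Abcg1, Mylip and Elovl6 below it, while Srebf2, Nr1h2 and Acly stay near it at the top.

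Summed by role, the 11 squalene and sterol enzymes went from 201.0 ± 0.7 CPM in rested control cells to 336.5 ± 49.4 CPM in activated ones (SD, n = 2). In cKO cells they went from 199.1 ± 5.3 to 352.0 ± 57.3 CPM (SD, n = 3). The LXR receptors and targets went from 435.1 ± 18.4 to 281.7 ± 14.2 CPM in control and from 449.2 ± 16.8 to 281.4 ± 17.2 CPM in cKO cells. The sum over all 38 genes stood at 2135 ± 23 CPM in rested and 2387 ± 186 CPM in activated control cells.

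The activation effect was also taken for each genotype, from the same fit of all 10 libraries. In control cells 15 of the 37 rose and 9 fell, with 56.1% of all genes called. In cKO cells 15 rose and 8 fell, with 63.4% of all genes called. Soat2 had a log2 fold change of 6.29 in control and 6.39 in cKO cells, Sqle of 2.87 and 3.31, Mylip of -1.69 and -1.78. These effects rest on the separate libraries of 2 control and 3 cKO mice. The sex term and the estimate of the spread were shared by both genotypes.

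Genes outside the 38 that act in the same routes were counted from lists of pathway genes. Each count stands against 34.8% of all genes tested called higher on activation and 34.3% called lower. Of 8 genes of SREBP processing and sterol-controlled degradation, 3 rose and 4 fell. Rnf145, a ubiquitin ligase of the endoplasmic reticulum, fell by 1.26 on the log2 scale, and Mbtps1, the protease that makes the first cut in SREBP, fell by 0.55. Erlin1, a protein of the endoplasmic reticulum membrane, rose by 0.72. Of 10 genes of the isoprenoid branch 7 rose and 2 fell. Pdss1, which makes the side chain of ubiquinone, rose by 1.68 on the log2 scale. Nus1 and Dhdds, the subunits of the enzyme for dolichol chains, rose by 0.46 and 0.45, and Ggps1, which makes geranylgeranyl diphosphate, had a log2 fold change of -0.33.

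Of 12 tested genes of sterol uptake and transport 5 rose and 7 fell, where 34.8% of all genes were called higher and 34.3% lower. Lipa, the lysosomal lipase that frees cholesterol from its esters, fell by 1.05 on the log2 scale, and Npc2, the lysosomal partner of Npc1, fell by 0.71. Apoe, a lipoprotein component that is also known as an LXR target, rose by 1.12 on the log2 scale, from 10.7 ± 1.2 to 23.1 ± 1.8 CPM. Only 1 of 4 oxysterol enzymes, Hsd3b7, was tested, and it was not called.

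Of 17 further tested genes of fatty acid synthesis, desaturation and elongation, 10 rose and 4 fell. The shares of all genes, 34.8% higher and 34.3% lower, apply to the lists here too. Hsd17b12, a reductase of chain elongation, rose by 1.43 on the log2 scale, and Mecr, of mitochondrial fatty acid synthesis, by 1.44. Acss2, which makes acetyl-CoA from acetate, fell by 1.49 and the elongase Elovl7 by 1.27. Among 5 acyl-CoA synthetases, which activate fatty acids for use, 4 rose and 1 fell. Acsl4 rose by 1.07, Acsl5 by 1.26 and Acsl3 by 0.57 on the log2 scale. Acsl6 rose from a mean of 0.00745 CPM, below the floor, to 1.15 ± 0.42 CPM (SD, n = 5). Of 14 genes of fatty acid oxidation 5 rose and 7 fell. Etfb and Etfa, the electron carrier of this route, rose by 0.92 and 0.70, while Acaa2, its thiolase, fell by 0.85 and Acadm, a dehydrogenase, by 0.62. The highest edgeR adjusted p among the called genes named here from these lists was that of Acsl3, 0.000144.

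The next comparison set cKO against control cells, and none of the 37 genes was called in either state. In rested cells 0.0422% of all genes were called, and in activated cells also 0.0422%. No member had an unadjusted p below 0.05 by edgeR in either state, and DESeq2 called 0 of the 37 in each. Over all genes tested, 783 at rest and 1142 after activation had such a p. At rest the log2 difference of cKO over control ran from -0.36 (Sqle) to 0.21 (Scd2), with a median size of 0.05. After activation it ran from -0.23 (Nr1h3) to 0.22 (Cyp51), with a median size of 0.06. The smallest p at rest belonged to Scd2 (log2 0.21, SE 0.14, edgeR adjusted p = 1), followed by Soat1 (-0.08, SE 0.06), Sqle (-0.36, SE 0.29), Scap (-0.05, SE 0.05) and Msmo1 (-0.07, SE 0.08).

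After activation the smallest p was that of Fdft1 (log2 0.16, SE 0.08, edgeR adjusted p = 0.83). Msmo1 (0.13, SE 0.08), Insig2 (-0.12, SE 0.08), Fdps (0.16, SE 0.11) and Npc1 (0.12, SE 0.09) followed. Fdft1 was at 24.6 and 27.7 CPM in activated control and 27.3, 26.5 and 32.4 CPM in activated cKO cells, which overlap. A missed threshold does not show equal levels, and only 2 control mice enter these comparisons.

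**Figure D4:**
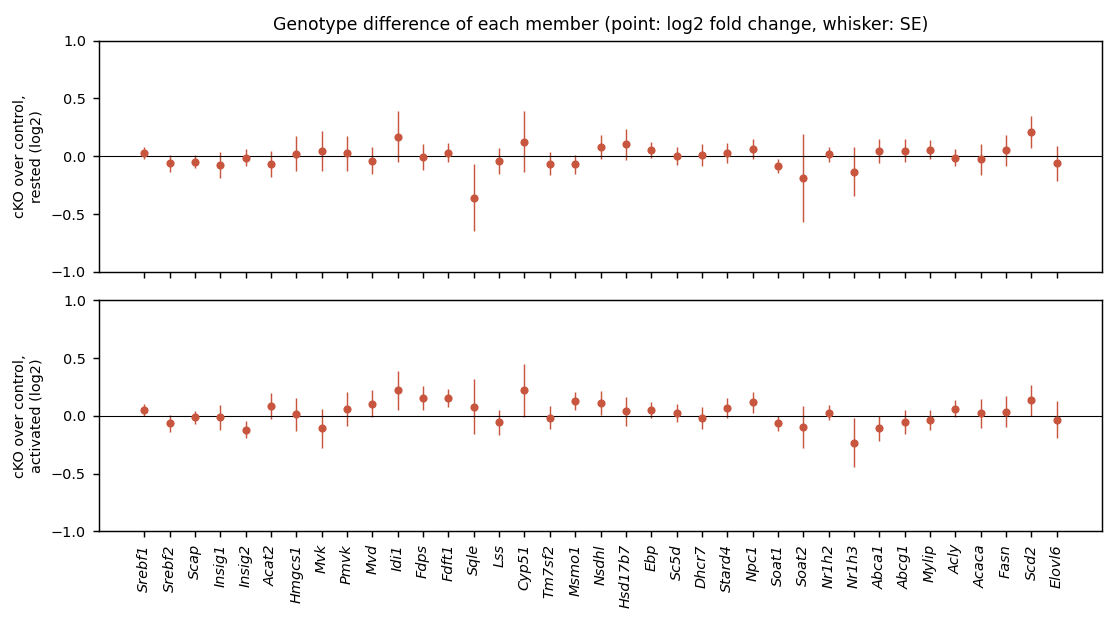
Log2 difference of cKO over control cells for the 37 tested genes, in rested (upper) and activated cells (lower); whiskers are SE from edgeR's fit. All values lie between -0.36 and 0.22, and Sqle and Soat2 at rest have the widest whiskers.

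The activation effect did not differ detectably between genotypes for any of the 37 genes. The interaction called 0% of all genes by edgeR, and DESeq2 called 3 of all genes and none of the 37. No member had an unadjusted interaction p below 0.05, and over all genes 519 did. The smallest belonged to Msmo1 (log2 0.20, SE 0.11, edgeR adjusted p = 1), and Fdft1 (0.13, SE 0.11), Sqle (0.44, SE 0.38), Fdps (0.16, SE 0.16) and Abca1 (-0.15, SE 0.15) came next. The estimates ran from -0.16 (Mvk) to 0.44 (Sqle).

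A further difference lay between the mice with names in 119, all female, and those in 116, all male. This comparison was added after the values had been seen. At rest none of the 37 genes was called, with 2.25% of all genes called and an unadjusted p below 0.05 by edgeR in 4 of the 37 and in 2481 of the 18966 genes tested. In activated cells 14 were higher in the female mice and 2 lower, where 6.36% of all genes were higher and 5.93% lower. The 14 were Srebf2, Insig1, Hmgcs1, Pmvk, Idi1, Fdps, Fdft1, Sqle, Lss, Cyp51, Msmo1, Dhcr7, Fasn and Acaca. By role they comprised 2 of 5 regulators, 4 of 7 early mevalonate and isoprenoid enzymes, 6 of 11 squalene and sterol enzymes and 2 of 5 fatty acid enzymes. The 2 lower genes were Mylip and Npc1.

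Activated Cyp51 was at 84.2 and 109.5 CPM in the female mice and at 55.6, 66.7 and 59.6 CPM in the male mice. The sexes did not overlap (log2 0.71, SE 0.08, edgeR adjusted p = 0.000296). Activated Idi1 averaged 18.8 ± 3.0 CPM in female (SD, n = 2) and 11.6 ± 1.9 CPM in male mice (SD, n = 3; log2 0.73, SE 0.13, edgeR adjusted p = 0.00271). Sqle averaged 43.7 ± 4.0 and 29.5 ± 2.1 CPM (log2 0.59, edgeR adjusted p = 0.000563), and Hmgcs1 100.9 ± 5.2 and 74.5 ± 5.1 CPM (log2 0.45, edgeR adjusted p = 0.000656). Mylip averaged 24.0 ± 0.5 CPM in female and 31.7 ± 1.3 CPM in male mice (log2 -0.41, edgeR adjusted p = 0.00213). Soat2 pointed the other way from the sterol enzymes, at 64.3 ± 12.6 and 99.7 ± 10.1 CPM, and was not called (log2 -0.66, SE 0.21, edgeR adjusted p = 0.133).

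**Figure D5:**
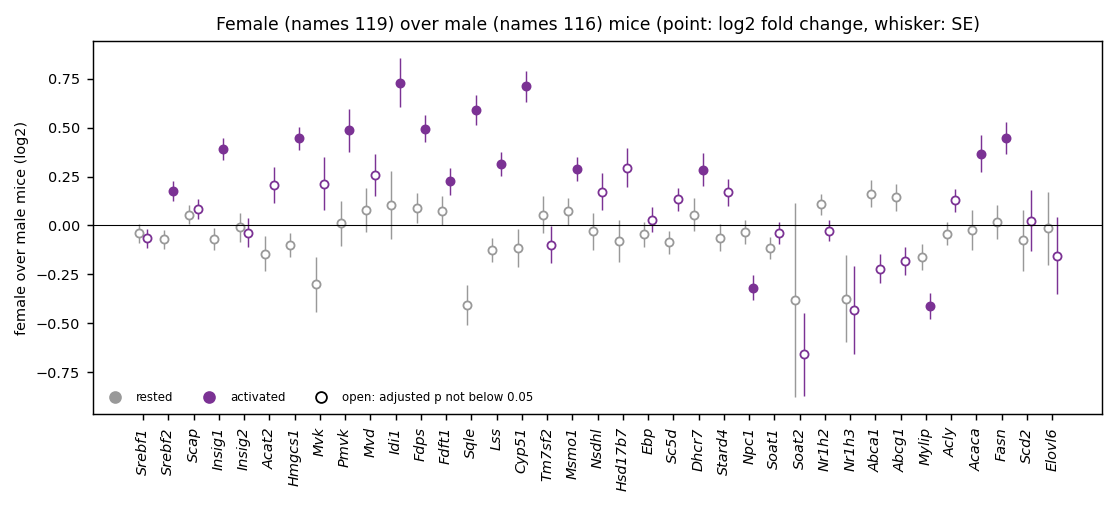
Log2 difference of female (names 119) over male (names 116) mice for the 37 tested genes, in rested (grey) and activated cells (purple); whiskers are SE, and filled points have an adjusted p below 0.05. All rested points are open, and 16 activated points are filled, 14 of them above 0.

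The activation effect itself was larger in the female mice for 5 of the 37 genes and smaller for 0, against 0.633% of all genes larger and 0.258% smaller. The 5 were Sqle, Cyp51, Hmgcs1, Insig1 and Lss. Sqle differed by 1.00 on the log2 scale (SE 0.13, edgeR adjusted p = 0.00666), from rested means below those of males to activated means above them. The 5 calls were lost without control mouse 1, control mouse 2 or cKO mouse 3. Of the 37 genes, 16 were called without cKO mouse 1 and 12 with mouse as a block. The calls over all genes rose as well, from 169 to 1687 without cKO mouse 1 and to 989 with the block. The 16 calls in activated cells were partly lost without control mouse 1 or control mouse 2. All were lost without cKO mouse 3, the female mouse whose titles disagree with its other labels. Leaving out each of these mice also lowered the calls over all genes, which were 2331 in the main fit. Of the 5 activation markers, 2 differed beside these genes: Il2ra averaged 441.3 ± 32.1 CPM in activated female and 382.9 ± 38 CPM in activated male cells (log2 0.23, edgeR adjusted p = 0.0201), and Il7r, which falls on activation, 333.4 ± 50.5 and 448.4 ± 72.3 CPM (log2 -0.47, edgeR adjusted p = 0.0499). Irf4 (log2 0.18, edgeR adjusted p = 0.426), Myc (0.23, edgeR adjusted p = 0.242) and Klf2 (-0.27, edgeR adjusted p = 0.0966) did not pass the test. Their part in the result was not tested, and sex and the mouse-name number cannot be told apart.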

How the data were processed

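Libraries were prepared from total RNA with a kit for stranded mRNA, per the labels' protocols. Subread, FastQC and MultiQC are the tools named, and mm39 the build, per the submitters' processing notes, which list no versions. The sources used here name neither the annotation nor the alignment settings, nor whether counting used the strand. The counts deposited by the authors are whole numbers for each gene, and nothing in the values points to a normalization. Each FPKM value deposited by the authors could be recomputed from its count, the gene length plus 1 and the total of the column, to a relative deviation of at most 9.4e-07.

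The counts were fitted with edgeR 4.0.16 in R 4.3.3. Library sizes were scaled by TMM, low genes were removed by group with filterByExpr, which left 18966 of 57010 genes, and a robust quasi-likelihood model with a mean for each group and a term for sex covered the 10 libraries together. A gene was called where its p, adjusted by Benjamini-Hochberg across the genes tested, was below 0.05. Biological variation between mice came to a coefficient of 9.14% (5 residual degrees of freedom). CPM are counts on TMM-scaled library sizes, and each SE was computed back from the test (log2 fold change over the root of F). The female and male comparison used a fit with a sex effect for each state. The scripts were tested on simulated counts for all genes tested, with 200 genes changed in each run. At a change of 0.5 on the log2 scale, 54% were recovered for activation, beside 17 false calls. For genotype at rest it was 44.5%, beside 9 false calls, and for the interaction 14%, beside 4. Small differences by genotype could thus be missed. In each of these runs the false calls were a larger share of all calls than the 0.05 of the threshold. The simulated libraries were drawn independently, without the pairing by mouse or the sex differences of the real ones.

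Rested and activated libraries of a mouse come from the same animal. After subtracting group means, their values correlated at 0.50 in the control mice, which mirror each other, and at 0.40, 0.22 and 0.47 in the cKO mice. No library was a repeat of another: within groups, chi-square over its degrees of freedom was 8.55 to 41.7.

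The 38 genes, their roles, the pathway and marker lists, the motifs and the tests were chosen with earlier results of these data known. All 38 genes were to be described. In the genotype comparisons and the interaction, genes were named if called, otherwise the 5 with the smallest p, and of each pathway list up to 4 called genes with the smallest p. Of these pathway genes, 2 are not reported here. Alternatives were DESeq2-type size factors, library totals, no filter on low counts or a filter at 5 CPM in at least 2 libraries, a model without sex, a sex effect for each state, a mouse block, DESeq2 1.42.0, limma 3.58.1 on log2(FPKM + 0.5), only the groups compared, the 116 or 119 mice alone, and leaving out each mouse. Library totals, the sex effect for each state and the female and male comparison were added after the data were seen. Figures were drawn with Python 3.11.15. Coordinates are those of the deposited table unless RefSeq is named. Spans shared with other genes were found from the coordinates of the deposited table, with strands looked up by identifier.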

Additional observations from a re-analysis of the deposited data

Results flagged for a closer look

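For 5 genes the activation effect differed between the female (119) and male (116) mice by a test of the difference itself. On the log2 scale of female minus male, it was 1.00 for Sqle (0.999), 0.83 for Cyp51 (0.826), 0.55 for Hmgcs1 (0.547), 0.46 for Insig1 (0.463) and 0.44 for Lss (0.439). The Benjamini-Hochberg adjusted p values of edgeR's test were 0.00666, 0.0183, 0.0183, 0.0275 and 0.0372. The difference rests on 2 female and 3 male mice.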

How the results depend on the processing

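Of the 26 genes called on activation, 22 were called in all 16 alternatives, and Srebf1, Srebf2, Sc5d and Acat2 were lost in some. Rested and activated libraries of a mouse are paired, and with the replicate block for mouse the numbers of the 37 called were 26 (both genotypes), 23 (control), 23 (cKO) and 0 (interaction), against 12937, 10352, 11840 and 0 of all genes. Under the block the female and male difference in the activation effect was called for 12 of the 37 and 989 of all genes.

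Leaving out each mouse gave 24 to 26 of the 37 called on activation in both genotypes together. For control cells alone, a different comparison, it gave 6981 to 10646 of all genes. Without a cKO mouse, both genotypes together gave 24 to 26 of the 37 and 12400 to 12666 of all genes. Control cells then gave 23 to 24 of the 37 and 10325 to 10646 of all genes. In control cells both counts were lower without a control mouse, where only 1 control mouse was left. Leaving out each mouse also gave 7 to 25 of all genes for genotype at rest, 6 to 49 after activation and 0 to 3 for the interaction. For female against male it gave 0 to 1 of the 37 at rest, 0 to 21 in activated cells and 0 to 16 for the activation effect (all genes: 68 to 717, 48 to 3675 and 1 to 1687). In the genotype comparisons, 204 of all genes at rest and 211 in activated cells were called with no low-count filter, 5 and 5 with the stricter filter, 29 and 21 by DESeq2, and 5 and 4 by limma on FPKM. In activated cells 5 were called with only the groups compared and 31 with a sex effect per state. The interaction called 39 with no filter and 3 by DESeq2. None of these fits called any of the 37 genes by genotype.

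Directions turned only in genes that were not called. With library totals and by limma on FPKM, the activation effect of Insig2 was 0.00099 and 0.00037 on the log2 scale. That of Dhcr7 was -0.053 in the 116 mice alone and -0.036 to 0.082 when each mouse was left out. Leaving out each mouse, the log2 genotype difference ran from -0.063 to 0.54 for Scd2 and -0.693 to 0.04 for Sqle at rest, and from -0.017 to 0.289 for Npc1 after activation. The interaction ran from -0.073 to 0.921 for Sqle, -0.056 to 0.408 for Fdps and -0.253 to 0.02 for Abca1. The cause was not tested. A lone mouse left in a group was assumed to vary like the other groups.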
